A study of Rattus norvegicus with 17 samples.

Results

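RGD1564883 (ENSRNOG00000029115) is 1 of the 32494 genes in the count table, described by the study as similar to ribosomal protein L12. It was chosen for its levels in these rats: nearly absent in some and at 6 or more counts per 1000000 counts (CPM) in others. The levels by rat and group are therefore a description, with no test.

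RNA was measured in the spinal cords of 17 rats, with 1 library per rat from pooled cervical, thoracic and lumbar blocks that kept the pia-arachnoid. All rats were female young-adult Sprague-Dawley animals, an outbred stock, and all had a contusion or a sham injury under ketamine and xylazine, followed by buprenorphine and gentamycin. A brainstem electrode was placed under isoflurane 3 days later. Group A (n = 4) had sham injury and sham stimulation. Group B (n = 3) had a moderate thoracic contusion (SCI) and sham stimulation. Group C (n = 3) had SCI and 2 h of stimulation of the nucleus raphe magnus, and group D (n = 2) had the same after pimozide at 1 mg/kg, which blocks 5-HT7 and dopamine D2 receptors. Group E (n = 5) had sham injury and stimulation. For group E the treatment label says unstimulated, against the group letter in the title and the series design, and the rats were taken as stimulated. The libraries held 9852873 to 14137717 counts on genes.

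Ribosomal protein L12 is a component of the large ribosomal subunit and lies at the site where translation factors that hydrolyze GTP bind. Ribosomal protein genes are known for many retrotransposed copies in mammalian genomes, most of them pseudogenes, and such copies keep much of the sequence of the parent gene. RefSeq, on the GRCr8 assembly, now lists RGD1564883 as a synonym of Rpl12a-ps1 and types it as a pseudogene, whereas the study's annotation typed it as protein-coding. RefSeq holds 16 genes of this name family, 12 of them pseudogenes and 4 protein-coding, the latter being Rpl12, Rpl12l1, Rpl12l2 and Rpl12-ps2. Its neighbors in that annotation are the long noncoding RNA LOC120093596 and Pdia4-ps1 before it and Myrfl and H3f3a-ps5 after it. The aligner's gene counting takes only reads that align to a single place and overlap a single gene, so a read shared in full with Rpl12 or another copy is not counted. Reads that differ between the copies by few bases may still be placed on the wrong copy, and the level is uncertain to that extent. The gene table and the RefSeq table could not be joined by identifier, so Rpl12 and the other ribosomal protein genes were not measured here.

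The transcript was on, at 6.20 CPM or more, in 8 rats and off, at 0.759 CPM or less, in 9 rats. No rat lay between. CPM were computed after TMM scaling of the libraries, and an interval is the exact 95% Poisson interval, which covers counting error only. In group A the level was 15.4 CPM in rat 70, 14.6 CPM in rat 82 and 11.5 CPM in rat 84, but 0.759 CPM in rat 83. Thus 3 of 4 rats without injury or stimulation were on and the lowest of them had 15.2 times the level of rat 83. In group B each of the 3 rats had a single count, which was 0.0917, 0.0961 and 0.0962 CPM. In group C the levels were 19.9 CPM in rat 89, 13.7 CPM in rat 90 and 10.6 CPM in rat 93. In group D both rats had 0 counts, which allows up to 0.120 CPM for 3 counts over the group. Among injured rats, the state therefore followed the group letter without exception: on in 3 of 3 rats of group C and in 0 of 5 rats of groups B and D.

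Group E, with stimulation but no injury, was mixed. Rats 69 and 87 had 6.20 and 8.16 CPM, and rats 85, 86 and 88 had 0, 2 and 1 counts, or 0, 0.140 and 0.0875 CPM. Both states thus occurred within each of the intact groups, A and E, and a single state within each injured group. Over all groups, the transcript was on in 5 of 9 intact and 3 of 8 injured rats.

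**Figure D1:**
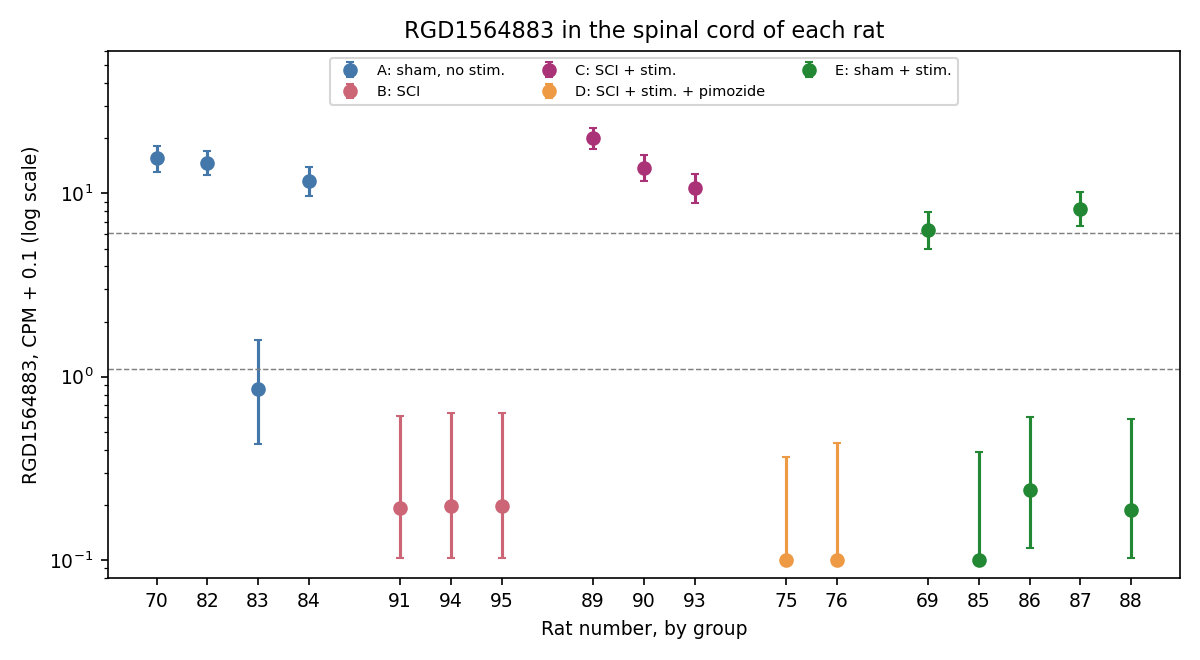
RGD1564883 in each of the 17 rats, by group, as CPM + 0.1 on a log scale. Points are single rats, bars are exact 95% Poisson intervals, and dashed lines mark 1 and 6 CPM. Group C sits wholly above the upper line, groups B and D wholly below the lower line, and groups A and E have rats on both sides.

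The states were not separated by depth. The libraries with the transcript on held 9852873 to 13060462 counts and those with it off 10334208 to 14137717. At the lowest level of an on rat, 6.20 CPM, the libraries of the off rats would have held 64.5 to 88.7 counts of it. They held 8 in rat 83 and 6 in the other 8 rats together, against 1111 counts in the on rats.

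The on rats also differed among themselves. Their levels spanned 3.21-fold, from 6.20 CPM (4.86 to 7.80) in rat 69 to 19.9 CPM (17.4 to 22.6) in rat 89, and these intervals did not overlap. Both on rats of group E lay below each on rat of groups A and C. Among the off rats, 8 had 0 to 2 counts. Rat 83, with 8 counts, had an interval of 0.328 to 1.50 CPM, which overlapped with those of the 3 rats of group B. It lay below the interval of each on rat.

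Group C had the highest mean, 14.7 ± 4.73 CPM (SD, n = 3), followed by group A with 10.6 ± 6.75 CPM (SD, n = 4), group E with 2.92 ± 3.95 CPM (SD, n = 5) and group B with 0.0947 ± 0.0026 CPM (SD, n = 3). Groups C and A overlapped, since rats 70 and 82 of group A exceeded rats 90 and 93 of group C, and so did groups A and E, since the off rat of group A was below both on rats of group E. The off rats of group E had 0 to 2 counts and the rats of group B 1 count each, which cannot be ordered at this depth. The difference between groups B and D was a single count per rat. The means of groups A and E average over levels on both sides of a wide gap.

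The fold differences between groups followed from these states. Group C had 156 times the summed level of group B, with a counting interval of 53.0 to 758 because group B had 3 counts in all. It was at least 123-fold higher than group D, with 3 counts over the group as the limit for group D. Group A had 113 times the level of group B, with a counting interval of 38.3 to 548. These intervals do not include the spread between rats, which was far larger in group A. Group C had 1.39 times the mean of group A, and group A had 3.62 times the mean of group E. Without rat 87, 1 of the 2 on rats of group E, the latter ratio was 6.58.

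In edgeR's model of all 17 rats with a coefficient per group, the fitted log2(FC) was -6.65 in ±SCI(0), 7.13 in ±st(SCI), -10.40 in ±pim(st/SCI), -1.90 in ±st(0), 0.48 in ±st/SCI(0) and 2.38 in ±SCI(st). The contrasts are named by the factor changed, with the constant background in parentheses, and they share groups, so that the values for group C enter 4 of the 6. The 3 largest values have a group with 0 or 1 count per rat as numerator or denominator. Their size depends on the prior count that edgeR adds: with a prior count of 2 in place of the default they were -5.32, 5.79 and -6.42. The value in ±st/SCI(0) was 0.10 without rat 83 of group A and 0.20 without rat 89 of group C. Without rat 87 of group E the value was -2.76 in ±st(0) and 3.23 in ±SCI(st). The fitted value of the stimulated group was thus above that of the unstimulated group in injured rats and below it in intact rats, where 2 of 5 rats were on against 3 of 4. The difference between these effects was not tested.

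**Figure D2:**
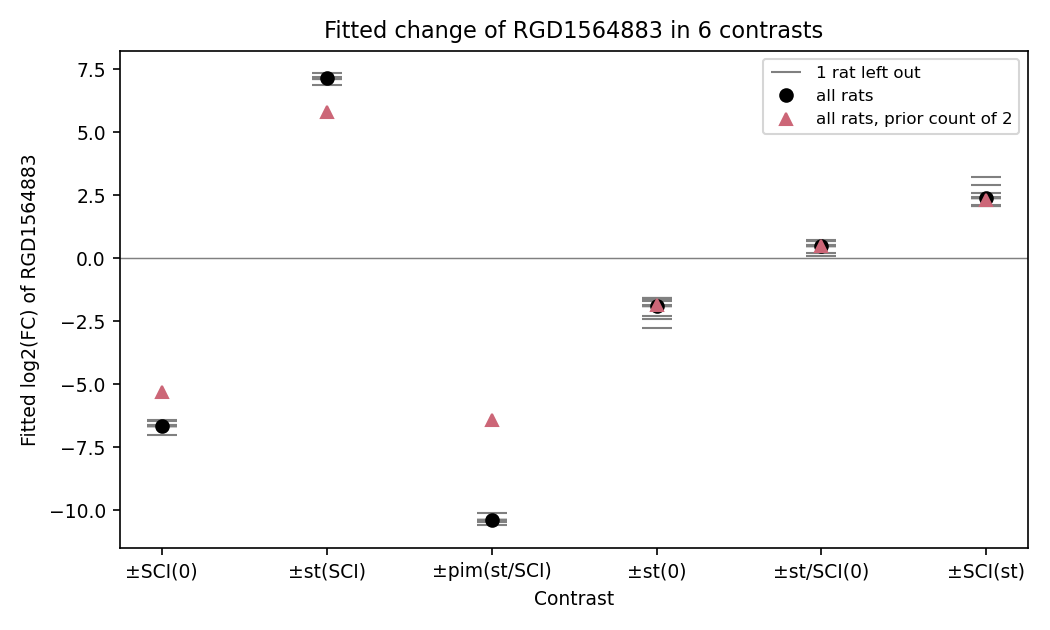
Fitted log2(FC) of RGD1564883 in the 6 contrasts. Black points are the model of all rats, grey dashes the model with 1 rat left out in turn, and triangles the model of all rats with a prior count of 2. The dashes keep the sign of the black point in each contrast, and the triangles move toward 0 most in ±pim(st/SCI), from -10.40 to -6.42.

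The spread within groups was among the largest of the genes that passed edgeR's filter on low counts. It is drawn from the levels by which the gene was chosen, so its ranks here are no independent result. The pooled within-group SD of log2(CPM + 0.1) was 2.02 for RGD1564883, which ranked 13 of the 15460 genes that passed edgeR's filter on low counts, against a median of 0.193. Its dispersion in edgeR's model was 1.18, rank 26, against a common dispersion of 0.0204. Differences between group means made up 69.6% of its variation on the log2 scale, and the remainder lay between rats of one group, 99.2% of it in groups A and E. These shares were not compared with those of other genes.

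An all-or-none pattern of this kind was rare. With the definition used here (each rat under 1 CPM or at 6 CPM or more, with at least 2 rats in each state), 2 of 32494 genes qualified, or 0.00615%, one of them RGD1564883, whose own levels shaped the definition. The other, ENSRNOG00000048771, followed injury: it had 6.33 to 46.8 CPM in the 8 injured rats and at most 0.858 CPM in the 9 intact rats. It shared the state of RGD1564883 in 7 of 17 rats. The values nearest to the limits for RGD1564883 were 6.20 CPM in rat 69 and 0.759 CPM in rat 83.

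A wider definition asked only for a gap of at least 4-fold between neighboring rats, on the scale of CPM + 0.1, above a lower side under 1 CPM, with at least 2 rats on each side. It found 19 genes, or 0.0585%, and RGD1564883 ranked 8 by the size of the gap. In 15 of the 19, both sides occurred within at least 1 group, as they did for RGD1564883. ENSRNOG00000052828 had the widest gap, with 0 counts in 8 rats and 3.59 to 11.4 CPM in 9 rats that came from each of the 5 groups. The locus that the study names Rack1 (ENSRNOG00000049070) was also among them, at 4.27 CPM in rat 76 of group D, 6.66 CPM in rat 87 of group E and at most 0.525 CPM in the other rats. It had 0 counts in 11 of 17 rats. Rack1, a scaffold protein of the small ribosomal subunit, is used by nearly all cells, so this locus cannot stand for the level of that gene. These 2 loci are named here after their values were seen. None of the other 18 genes divided the rats as RGD1564883 did. The closest shared its side in 10 of 17 rats.

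**Figure D3:**
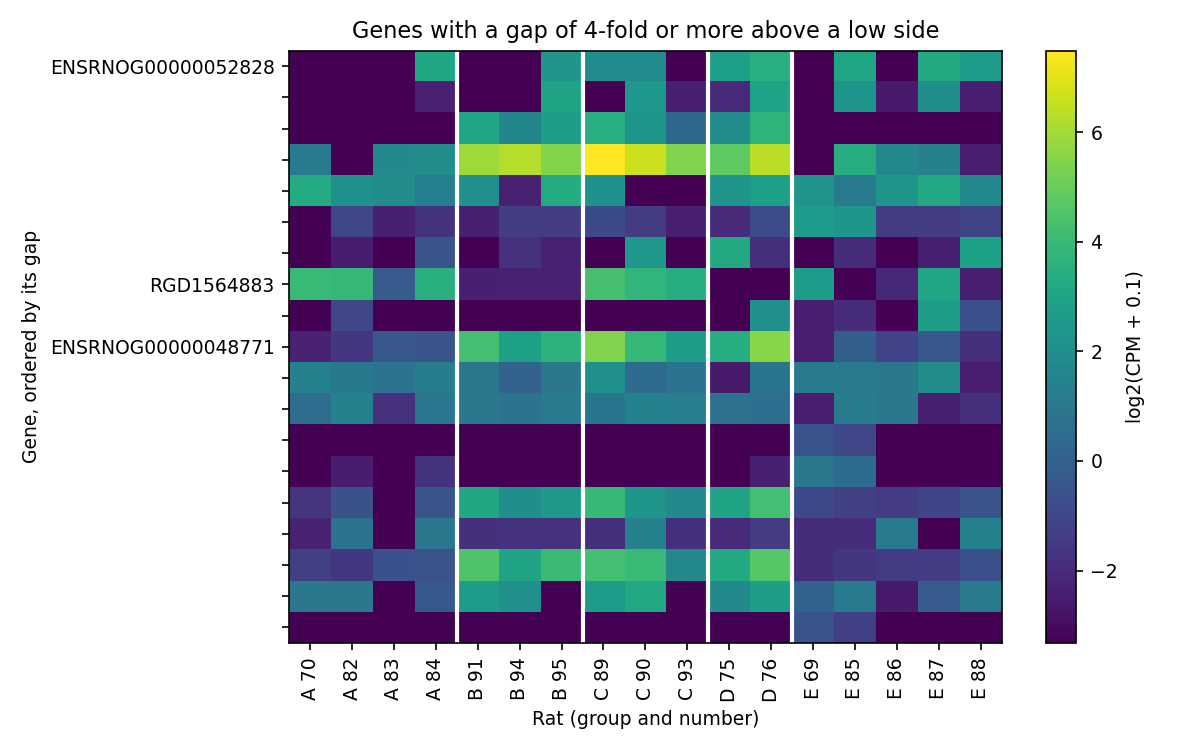
The 19 genes with a gap of at least 4-fold above a low side, 1 per row in order of the gap, in the 17 rats, as log2(CPM + 0.1). White lines separate groups A to E. The row of RGD1564883 is bright in 3 rats of group A, 3 of group C and 2 of group E, and no other row has this order of bright and dark rats, while ENSRNOG00000048771 is bright in the injured groups B, C and D.

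Of the 15459 other genes compared with it, LOC102555453 (ENSRNOG00000028993), a protein-coding gene in RefSeq, had the second highest likeness. Likeness was measured as the share of the 72 pairs of an on rat with an off rat in which the other gene was higher in the on rat. Over the 15459 other genes that passed the filter the median was 50.0%, and 0 genes (0.0%) separated the on rats from the off rats without overlap in either direction. LOC102555453 had 94.4%, a value reached or exceeded by 2 genes including itself (0.0129%). The gene above it was ENSRNOG00000007291 at 95.8%, which ranged from 13.3 to 19.9 CPM, against 6.39 to 38.9 CPM for LOC102555453. The latter is described further for its wider range, a choice made after the values were seen. At the other end, 3 genes tied at 8.33%. Of these, ENSRNOG00000012204 ranged from 109.9 to 140.9 CPM, and ENSRNOG00000022162 from 62.9 to 158 CPM. The other, ENSRNOG00000055241, ranged from 1.65 to 6.47 CPM. The study lists LOC102555453 among the genes altered by pimozide in these rats, so it was not chosen independently of the difference between groups C and D.

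LOC102555453 had 21.4, 18.7 and 17.1 CPM in the on rats of group A (70, 82 and 84) and 7.97 CPM in the off rat 83. In group E it had 12.7 and 18.7 CPM in the on rats 69 and 87, and 6.87, 7.34 and 6.39 CPM in the off rats 85, 86 and 88. It was thus higher in the on rat in each of the 9 pairs of rats within these 2 groups, by at least 2.14-fold in group A and 1.72-fold in group E. Of the 15459 genes other than RGD1564883, 209 (1.35%) had all 9 pairs in this order, LOC102555453 among them. These 9 pairs are among the 72 over which LOC102555453 was selected by its likeness, so their order restates that choice and is no independent result. Among injured rats its levels were 38.9, 26.2 and 23.8 CPM in group C, 18.3, 15.4 and 13.8 CPM in group B and 9.69 and 12.4 CPM in group D. Unlike RGD1564883, it was detected in each rat, with at least 73 counts.

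Subtracting the CPM of RGD1564883 from that of LOC102555453, rat by rat, left 5.73 ± 1.27 CPM (SD, n = 4) in group A, where LOC102555453 itself had 16.3 ± 5.84 CPM (SD, n = 4). In group E it left 7.47 ± 1.74 CPM (SD, n = 5) of 10.4 ± 5.28 CPM (SD, n = 5). In group C it left 14.9 ± 3.58 CPM (SD, n = 3) of 29.6 ± 8.12 CPM (SD, n = 3), and the remainder, 12.5 to 19.0 CPM, overlapped with that of group B, 13.7 to 18.2 CPM. LOC102555453 itself did not overlap between groups B and C. Pairs of rats from these groups are among the on and off pairs by which it was selected. The share of all genes without overlap between groups B and C was not counted. In group D nothing was subtracted, and the 2 rats kept 9.69 and 12.4 CPM. The subtraction left 15.8% of the within-group sum of squares of LOC102555453, the lowest share of the 15459 genes, followed by 51.6% for the next. The median was 383%, that is, for most genes the subtraction added variation. LOC102555453 was picked in these same rats for following RGD1564883, so its rank is not independent of that choice. The share also depends on how much a gene varies in CPM, so the other genes are no even background for it. Both genes are in CPM, which does not take out gene length, and the subtraction was chosen after the levels were seen. Whether the annotations of both genes share sequence, so that reads of 1 transcript could be counted on either, was not tested, and the likeness and the subtraction are values of counts at these 2 loci.

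The on rats of a group were also compared with each other. In 7 of the 7 such pairs, 3 in group A, 3 in group C and 1 in group E, the rat with more RGD1564883 also had more LOC102555453. Of the 15459 genes other than RGD1564883, 247 (1.6%) had all 7 pairs in this order, LOC102555453 among them. This comparison was chosen after the levels were seen.

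**Figure D4:**
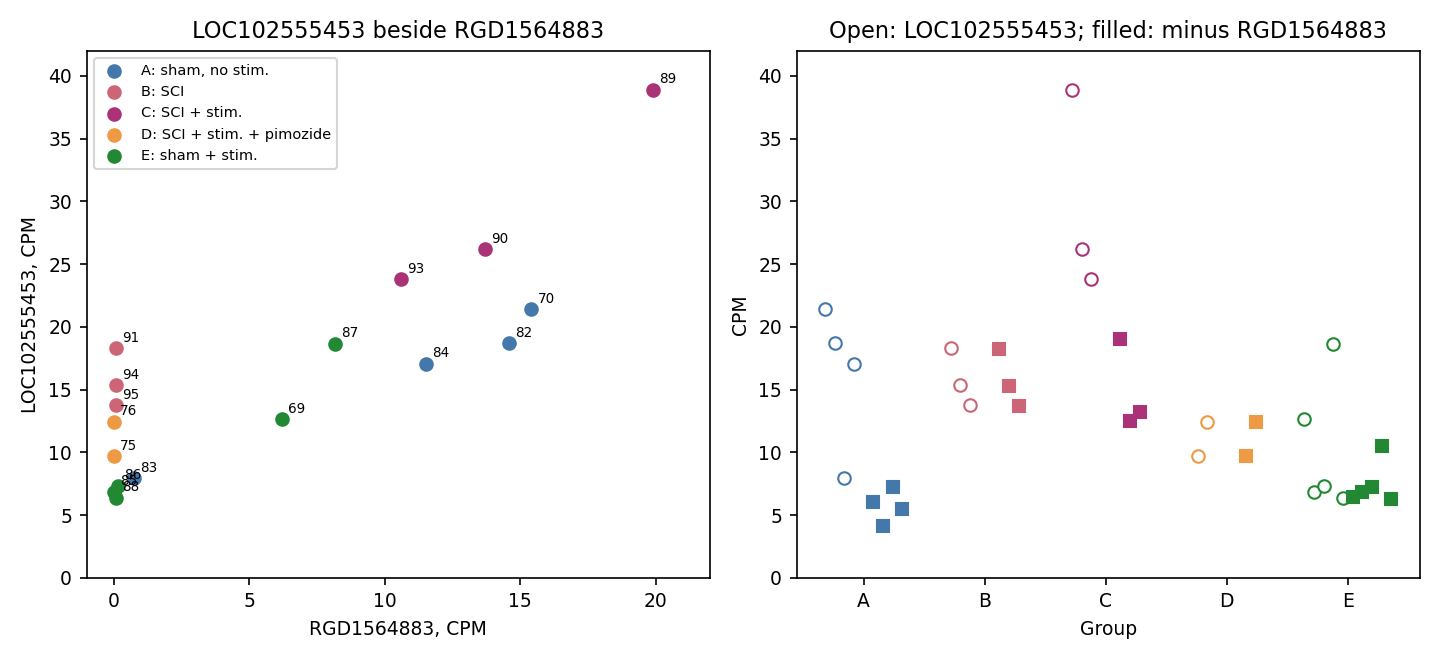
Left, LOC102555453 against RGD1564883 in CPM, with each point 1 rat labelled by its number. Right, by group, LOC102555453 in CPM (open circles) and the same after subtraction of RGD1564883 rat by rat (filled squares). In groups A, C and E the filled squares span a narrower range than the open circles, and those of group C lie at 12.5 to 19.0 CPM, overlapping with group B.

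The transcripts that the study lists as increased by stimulation in injured rats were compared in the same way. The 38 others on that list, mostly genes of red cell precursors and granulocytes, had likeness shares of 51.4% to 83.3% over all rats, with a median of 69.4% against 50.0% for all genes. The list was chosen on groups B and C, which also differ in RGD1564883, and is not independent evidence. Within groups A and E their median was 4 of 9 pairs in the order of RGD1564883, as it was over all genes. Of the 38, 0 had all 9. Over all genes this share was 1.35%, so 0 of 38 does not set the list apart.

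Levels of blood cell genes were compared rat by rat for the same reason. Of 9 blood markers, 8 could be matched (Hba-a1, Hbb, Alas2, Slc4a1, Ppbp, S100a8, S100a9 and Mpo), of which only Ppbp, a platelet chemokine, was at 0 in any rat. Their summed level was 157 to 800 CPM in group A, 220 to 308 CPM in group B, 506 to 1299 CPM in group C, 190 to 275 CPM in group D and 189 to 481 CPM in group E. Groups B and D, in which RGD1564883 was off, lay below group C in this sum. Within group A the sum was lowest, 157 CPM, in rat 70, which had the highest RGD1564883 of the group, and it was 768 CPM in rat 83, which was off. In group E the off rat 88 had 481 CPM, above the 422 and 473 CPM of the on rats 69 and 87, whereas the off rats 85 and 86 had 242 and 189 CPM. The likeness of the sum to RGD1564883 was 77.8% over all pairs, and 5 of the 9 pairs within groups A and E were in order. The globins Hba-a1 and Hbb made up 76.8% to 96.0% of the sum in each rat, so it mostly reflects globin RNA. The cell source of that RNA was not tested. The granulocyte genes S100a8, S100a9 and Mpo summed to 60.1 to 100.4 CPM in group C, 13.4 to 18.2 CPM in group B and 16.1 to 22.7 CPM in group D. In group A they had 4.06, 9.09 and 54.2 CPM in the on rats 70, 82 and 84 and 19.1 CPM in the off rat 83. In group E the on rat 69 had the lowest level of the group, 4.50 CPM, and the on rat 87 the highest, 59.0 CPM. The likeness of this sum was 63.9%, with 4 of the 9 pairs in order. These genes were summed apart after the values were seen. The part of blood cells in the difference between groups B, C and D was not tested. In bulk tissue, a change in the number of cells of a type and a change in RNA per cell cannot be told apart.

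**Figure D5:**
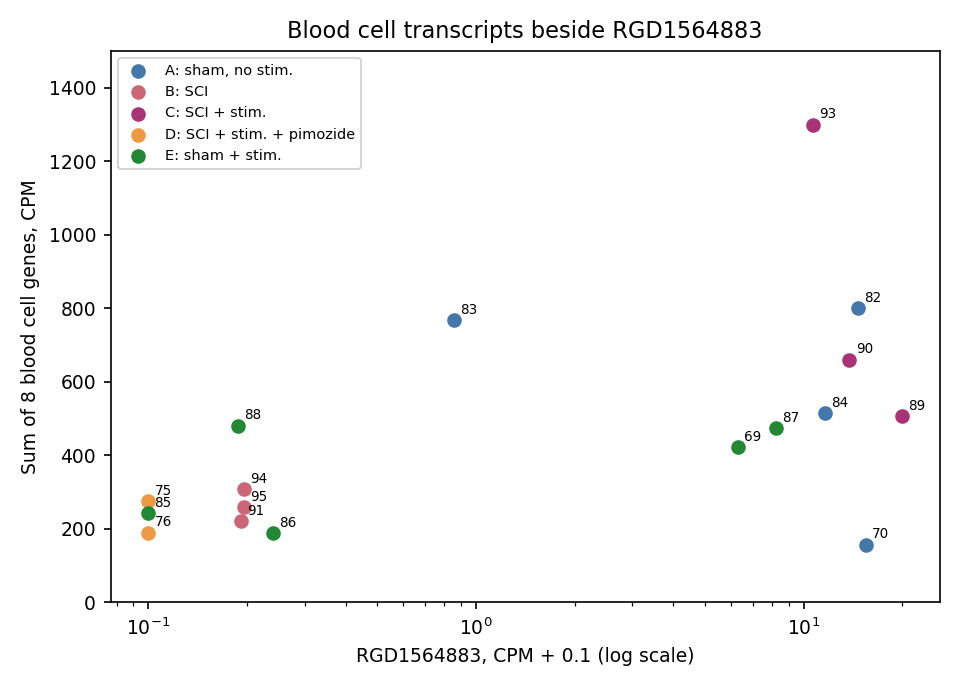
Sum of 8 blood cell genes, mostly globins, in CPM against RGD1564883 as CPM + 0.1 on a log scale, 1 point per rat labelled by its number. Rat 70 is on with the lowest sum, 157 CPM, and rat 83 is off with 768 CPM, while the rats of groups B and D are low in both.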

How the data were processed

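Spinal cord RNA of 17 rats was prepared with a stranded, ribosomal RNA-depleted kit. The authors trimmed single-end reads with Trim Galore (0.4.1), aligned them with STAR (2.5.0a) and counted them per Ensembl gene with GeneCounts, and the deposited counts are whole numbers without normalization. The paper names the earlier rat assembly and the submitters' processing notes the later one, so no coordinates are given; the strand setting is not given in the sources used here.

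Groups came from the titles. Counts were scaled by TMM and fitted in edgeR 4.0.16 (R 4.3.3; glmQLFit, filterByExpr, default prior count), with DESeq2 1.42.0 as an alternative, and summarised in Python 3.11.15 (scipy 1.17.1, matplotlib 3.10.9). The fit and the search for all-or-none genes were tested on simulated data. For the search, the simulated states lay far from its limits and varied by counting noise alone. That test does not show how the search performs near the limits. The gene, lists and limits were chosen with earlier results of these data known. Genes were named by likeness, by the number of rats in the same state and, for Rpl12 and ribosomal proteins, by list. Identifiers were matched to symbols only through 99 pairs in the study's supplement. Of 79 ribosomal protein genes, 10 spinal cord, 6 muscle and 6 nerve markers 0 matched, so the planned tests of Rpl12 and ribosomal proteins, and a check of the tissue, were not run. Rats were separate animals, with 9852873 to 14137717 counts each.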

Additional observations from a re-analysis of the deposited data

How the results depend on the processing

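The number of rats with RGD1564883 on, in each group, was the same under scaling by total counts, RLE scaling and a split at the largest gap. Its fitted log2(FC) kept its sign in each contrast under the alternatives run (DESeq2, the exact test of the study's methods, other scaling, other filters on low counts, a fit of the 2 groups alone and each rat left out). It moved by more than 2.02, the pooled within-group SD on the log2 scale, only in ±pim(st/SCI), to -6.42, with a prior count of 2. This limit is larger than the size of the main values in ±st(0), -1.90, and ±st/SCI(0), 0.48. A fall to 0 in either would not have passed it. The prior count of 2 also moved ±SCI(0) to -5.32 and ±st(SCI) to 5.79, outside the ranges given next. Without 1 rat at a time its lowest and highest values were -7.04 and -6.42 for ±SCI(0), 6.85 and 7.33 for ±st(SCI), -10.60 and -10.12 for ±pim(st/SCI), -2.76 and -1.57 for ±st(0), 0.10 and 0.71 for ±st/SCI(0), and 2.05 and 3.23 for ±SCI(st). The number of all-or-none genes, 2, depended on its limits: 0 with off under 0.5 CPM or on at 10 CPM or more, 9 with on at 3 CPM or more, 19 with the gap definition, and 2 to 3 without 1 rat at a time. With 0.5 CPM RGD1564883 itself dropped out through rat 83, and with 10 CPM through rats 69 and 87. The number of other genes without overlap between on and off rats was 0 to 1, the latter without rat 91, 89 or 90. The planned tests of Rpl12 and of ribosomal protein genes were not run, because their identifiers could not be matched. No paired analysis was possible because the groups share no rat numbers. Levels under 3 counts, 0.210 to 0.312 CPM per library, cannot be told from 0.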
